A study of Capra hircus with 20 samples.

Results

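The metabotropic glutamate receptor genes GRM2, GRM3, GRM4, GRM5, GRM7 and GRM8 were examined in the goat hypothalamus, 6 of the 21071 genes with an expression value. They were taken by symbol, each matched to its gene identifier in the goat annotation. The tissue came from 20 female Jining grey goats, a breed that matures early, with 5 goats at each of 1 day (D1), 2 months (M2), 4 months (M4) and 6 months (M6) after birth. Each goat gave 1 strand-specific RNA library from which rRNA had been removed, and the stages differ by age alone as far as the labels say. The study followed the hypothalamus from birth to sexual maturity, and the stages asked how the level of each gene differed with age. Values are fragments per kilobase of transcript, scaled to the mapped fragments of the library (FPKM). FPKM corrects for transcript length, so levels are set side by side between genes. It does not correct for reads of unspliced RNA, which rRNA-depleted libraries can hold. The part of such reads in the order of the genes was not tested.

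Metabotropic glutamate receptors are G protein-coupled receptors that sense glutamate, the main excitatory transmitter of the brain, and tune the strength of synapses more slowly than the ion channel receptors. Group I receptors, here GRM5, sit mainly on the postsynaptic side and act through Gq and phospholipase C to release calcium from internal stores. Group II receptors (GRM2 and GRM3) and group III receptors (GRM4, GRM7 and GRM8) act through Gi/o, lower cyclic AMP and, at nerve endings, hold back transmitter release. GRM3 is also made by astrocytes and is a receptor for the dipeptide N-acetylaspartylglutamate (NAAG). Glutamate is a major excitatory input to the neurons of the hypothalamus that govern the reproductive axis.

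On the ARS1.2 goat assembly, GRM5 is annotated on chromosome 29 at 6026033 to 6632446 and GRM3 on chromosome 4 at 86626320 to 86868950. GRM8 lies on the same chromosome 4 at 28603953 to 29484086. GRM7 lies on chromosome 22 at 18445551 to 19377162, and GRM2 on the same chromosome at 49207158 to 49217540. GRM4 lies on chromosome 23 at 40429907 to 40545074. The 6 annotated genes are protein coding and differ widely in span, from 10383 bp for GRM2 to 931612 bp for GRM7. A lncRNA that the study lists lies inside the span of GRM7 on the same strand, so reads of the 2 transcripts could be shared and the level of GRM7 carries that uncertainty.

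Of the 20 libraries, 5 stood apart by markers of neighbouring brain regions, with at least 3 of 4 markers of a region over 5 times their median over all libraries and at least 1 FPKM. Striatal markers were high in D1 replicate 4, M2 replicate 4 and M6 replicate 2, where DRD1, a dopamine receptor of striatal neurons, was at 56.4 to 150.6 FPKM. Cortical markers were high in M4 replicate 1 and thalamic markers in M4 replicate 2. The labelled tissue was also uneven by its own markers. AVP, the gene of vasopressin, reached 10 FPKM in 5 libraries, OXT (oxytocin) in 5, and GHRH, the growth hormone-releasing hormone, was listed at 0 in 19. The part these differences in dissected tissue had in the stage comparisons was not tested. Differences from D1 for GRM3, GRM5, GRM7 and GRM8 are also given over the other 15 libraries. These were 3 from M4 and 4 from each of D1, M2 and M6. The split was decided on once the data had been seen, and it did not select for hypothalamus markers. Summed over 9 such markers, the 15 ran from 1.32 FPKM (M4 replicate 3) to 913 FPKM (M6 replicate 5). The number of reads behind each FPKM value could not be recovered from the values, so no counting error is given and precision rests on the spread between goats. Mapping rate differed with stage, since every M2 library was below every D1 library in it.

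**Figure D1:**
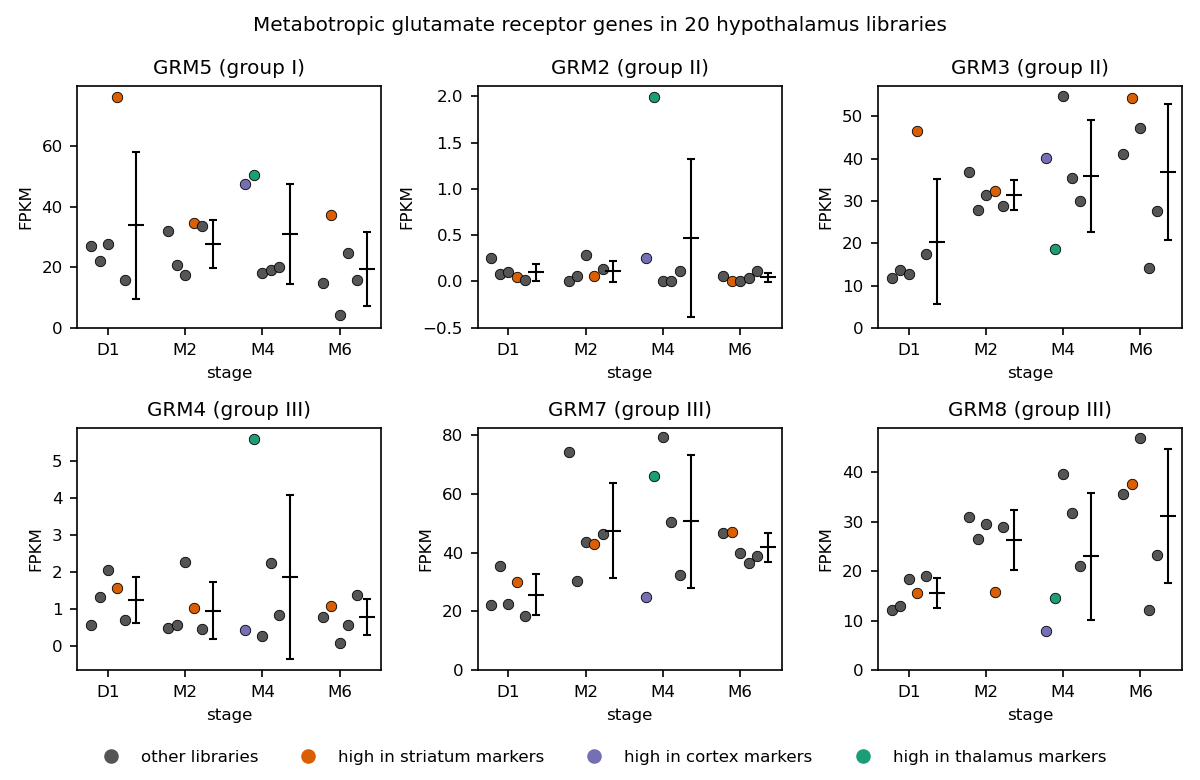
Levels of the 6 receptor genes (vertical axis, FPKM, each panel on its own linear scale) by stage, with 1 point per library and, to the right of each stage, the mean with SD (n = 5). Coloured points are the 5 libraries high in markers of striatum, cortex or thalamus. GRM7 in all 5 M6 libraries lies above all 5 D1 libraries, and the D1 library at 76.3 FPKM of GRM5 and 46.4 FPKM of GRM3 is the same one.

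GRM7, GRM3, GRM5 and GRM8 were well expressed, and GRM7, a low-affinity receptor of the presynaptic active zone, was the highest. Over the 20 libraries the mean level was 41.4 ± 16.6 FPKM for GRM7 (SD, n = 20), 31.1 ± 13.6 FPKM for GRM3, 28.1 ± 16.0 FPKM for GRM5 and 24.0 ± 10.8 FPKM for GRM8. GRM4 was far lower at 1.21 ± 1.22 FPKM and GRM2 lowest at 0.180 ± 0.436 FPKM. GRM7 had the highest level of the 6 genes in 13 libraries, GRM5 in 4, GRM3 in 2 and GRM8 in 1. GRM7 was above GRM3 in 16 of 20 libraries and above GRM5 in 16. The neighbours below it in that order were not set apart by their spread, since GRM3 exceeded GRM5 in 11 of 20 libraries and GRM5 exceeded GRM8 in 10. The gap below these genes was complete, with each of them above GRM4 and GRM4 above GRM2 in 20 of 20 libraries. Of the 16771 genes tested, 92.7% had a lower mean level than GRM7, 85.5% lower than GRM8, 21.1% lower than GRM4 and 3.40% lower than GRM2.

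GRM6, a group III receptor known from retinal bipolar cells, was also low, under 0.1 FPKM in 19 of 20 libraries.

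GRM7 was higher at each later stage than at D1, by about 1.7 to 1.9-fold, without being called. At D1 its level was 22.3, 35.3, 22.4, 30.1 and 18.4 FPKM in replicates 1 to 5. At M2 the levels were 74.1, 30.3, 43.6, 42.8 and 46.3 FPKM, and at M4 they were 24.8, 66.1, 79.4, 50.5 and 32.5 FPKM. At M6 they were 46.8, 47.1, 39.8, 36.4 and 38.9 FPKM, the narrowest spread of the stages. Each M6 library was above each D1 library, and 4 M2 libraries and 3 M4 libraries were above all of D1. Over all genes tested, 1.36% had every M6 library above every D1 library, and GRM7 was the 1 member that did. The stage means were 25.7 ± 6.86 FPKM at D1 (SD, n = 5), 47.4 ± 16.2 FPKM for M2, 50.7 ± 22.7 FPKM for M4 and 41.8 ± 4.85 FPKM for M6.

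In the limma fit, a gene was called when its p, adjusted by Benjamini-Hochberg over all genes tested, was under 0.05 and its log2 fold change was 1 or more in size. The log2 fold change of GRM7, on the log2(FPKM + 0.1) scale, was 0.86 ± 0.28 (SE) in M2 vs. D1, with an adjusted p of 0.187. In M4 vs. D1 it was 0.89 ± 0.28 (adjusted p = 0.343), and the M6 vs. D1 value was 0.73 ± 0.28 (adjusted p = 0.617). For the mean of M2, M4 and M6 against D1 it was 0.83 ± 0.23, with a 95% confidence interval of 0.35 to 1.31 and an adjusted p of 0.176. Over the 15 libraries this difference was 0.93 ± 0.25 (adjusted p = 0.133). With library quality weights, which count a noisy library for less, it was 0.84 ± 0.17, where the adjusted p of 0.00882 passed the threshold and the fold did not. With mapping rate as a covariate it was 0.46 ± 0.26, and because mapping rate and stage moved together their parts cannot be told apart.

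GRM3, the group II receptor of astrocytes and neurons, was low in 4 of the 5 D1 libraries and higher in nearly all later ones. At D1 it was at 11.7, 13.6, 12.9, 46.4 and 17.6 FPKM, the high value being replicate 4, which is high in striatal markers. At M2 the levels were 36.7, 27.9, 31.4, 32.3 and 28.9 FPKM, all above the other 4 D1 libraries. At M4 they were 40.2, 18.7, 54.7, 35.5 and 30.0 FPKM, and at M6 41.0, 54.3, 47.1, 14.1 and 27.7 FPKM. Of the 15 later libraries, only M6 replicate 4 was not above those 4 D1 libraries. The means were 20.4 ± 14.7 FPKM at D1 (SD, n = 5), 31.4 ± 3.46 FPKM for M2, 35.8 ± 13.3 FPKM for M4 and 36.8 ± 16.0 FPKM for M6.

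By limma the log2 fold change of GRM3 was 0.83 ± 0.37 (SE) in M2 vs. D1 (adjusted p = 0.289). The M4 vs. D1 value was 0.94 ± 0.37 (adjusted p = 0.492) and that of M6 vs. D1 was 0.92 ± 0.37 (adjusted p = 0.630). For the later stages together it was 0.90 ± 0.30, with a 95% confidence interval of 0.26 to 1.53 and an adjusted p of 0.266. D1 replicate 4 set much of this spread. Without the 5 libraries high in markers of other regions, the D1 level was 13.9 ± 2.54 FPKM (SD, n = 4), and the later stages were higher by 1.25 ± 0.26 on the log2 scale (adjusted p = 0.0503). With library quality weights GRM3 was called in this comparison at 1.16 ± 0.22 (adjusted p = 0.00597), as were 1.33% of all genes under those weights. It was also called in M6 vs. D1 at 1.29 ± 0.28 (adjusted p = 0.0320), as were 0.566% of genes. With mapping rate as a covariate the difference of the later stages was 0.56 ± 0.37 (adjusted p = 0.999).

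GRM8, a group III receptor of high glutamate affinity, was at 12.25, 12.9, 18.4, 15.7 and 19.0 FPKM at D1, the tightest group of the gene. At M2 it was at 30.9, 26.55, 29.6, 15.8 and 29.0 FPKM, with 4 of 5 libraries above all of D1. At M4 it was at 7.85, 14.6, 39.7, 31.75 and 21.05 FPKM, and the 2 lowest were replicate 1, high in cortical markers, and replicate 2, high in thalamic markers. At M6 the levels were 35.6, 37.7, 47.0, 12.1 and 23.3 FPKM, with 4 of 5 above all of D1. M6 replicate 4 was thus the lowest M6 library for both GRM3 and GRM8. Its summed level of 5 oligodendrocyte markers, 617 FPKM, was also the lowest of the stage, whose highest was 14080 FPKM. The same library had the highest OXT level of the 20, 413 FPKM. Over all 20 libraries, Pearson's r with the oligodendrocyte markers was -0.15 for GRM3 and 0.53 for GRM8. Within stages it was 0.006 and 0.722, and over the 15 libraries 0.008 and 0.158.

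By limma the log2 fold change of GRM8 was 0.73 ± 0.38 (SE) in M2 vs. D1 (adjusted p = 0.351). The M4 vs. D1 value was 0.36 ± 0.38 (adjusted p = 0.857) and that of M6 vs. D1 was 0.87 ± 0.38 (adjusted p = 0.638). For the later stages together it was 0.65 ± 0.31, with a 95% confidence interval of 0.01 to 1.3 and an adjusted p of 0.423. Over the 15 libraries it was 0.88 ± 0.28 (adjusted p = 0.209). With mapping rate as a covariate it was -0.0014 ± 0.32. Over the 15 libraries GRM3 and GRM8 did not overlap between M2 and D1 or between M4 and D1, a separation that 4.66% and 4.44% of all genes tested also showed. GRM7 did not overlap between M6 and D1 in those libraries, as did 3.18% of genes.

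GRM5, the postsynaptic group I receptor, was not higher on average at any later stage than at D1. Its levels were 27.2, 22.3, 27.7, 76.3 and 16.0 FPKM at D1, again with replicate 4 the highest. At M2 they were 31.9, 20.8, 17.7, 34.7 and 33.7 FPKM. At M4 they were 47.7, 50.6, 18.1, 19.2 and 20 FPKM, the 2 high values being the libraries with cortical and thalamic markers. At M6 they were 14.99, 37.5, 4.45, 24.7 and 15.9 FPKM. Replicates 1 and 5 lay just under the lowest D1 library, which was at 15.98 FPKM, and replicate 3 well under it. The highest M6 value was in replicate 2, high in striatal markers, and the lowest was in replicate 3, which also had the lowest summed level of 5 neuron markers of all libraries, 66.9 FPKM. In bulk tissue, fewer neurons and less RNA of a gene per neuron cannot be told apart.

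By limma the log2 fold change of GRM5 was -0.12 ± 0.48 (SE) in M2 vs. D1 (adjusted p = 0.931), and the M4 vs. D1 value was -0.06 ± 0.48 (adjusted p = 0.986). For M6 vs. D1 it was -0.87 ± 0.48, with a 95% confidence interval of -1.87 to 0.13 and an adjusted p of 0.721. With mapping rate as a covariate the direction turned in M2 vs. D1 (0.68 ± 0.56) and M4 vs. D1 (0.50 ± 0.50), and over the 15 libraries the M2 vs. D1 value was 0.14 ± 0.39. Without M6 replicate 3 the M6 vs. D1 difference was -0.42 ± 0.42 and without D1 replicate 4 it was -0.52 ± 0.46. Over the 15 libraries GRM5 was at 23.3 ± 5.47 FPKM at D1 (SD, n = 4), 26.0 ± 7.96 FPKM for M2 (n = 4), 19.1 ± 0.978 FPKM for M4 (n = 3) and 15.02 ± 8.28 FPKM for M6 (n = 4).

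GRM4, a group III receptor best known from the cerebellum, was between 0.0724 and 5.61 FPKM and at least 1 FPKM in 9 of 20 libraries. Its means were 1.24 ± 0.618 FPKM at D1 (SD, n = 5), 0.949 ± 0.767 FPKM for M2, 1.87 ± 2.23 FPKM for M4 and 0.777 ± 0.499 FPKM for M6. The highest value, 5.61 FPKM, was in M4 replicate 2, high in thalamic markers, and the next highest M4 value was 2.25 FPKM. Over the 15 libraries the M4 mean was 1.11 ± 1.03 FPKM (SD, n = 3). The log2 fold change for the later stages together was -0.43 ± 0.57 (SE, limma adjusted p = 0.797), with a 95% confidence interval of -1.61 to 0.75. GRM2, the main group II autoreceptor of glutamate nerve endings, was under 0.1 FPKM in 13 of 20 libraries and listed at 0 in 5. It reached 1 FPKM in M4 replicate 2 alone, at 1.99 FPKM, and no fold change is given for it.

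All 6 members passed the filter on low values. None was called in M2 vs. D1, M4 vs. D1, M6 vs. D1, M4 vs. M2, M6 vs. M2, M6 vs. M4 or the later stages against D1. Calls were rare over all genes tested, at 0% for M2 vs. D1, 0.0537% for M4 vs. D1, 0.00596% for M6 vs. D1 and 0.0596% for the later stages against D1. The share was also 0% in the comparisons M4 vs. M2, M6 vs. M2 and M6 vs. M4. At an unadjusted p under 0.05, GRM3, GRM7 and GRM8 were higher at the later stages together, as were 4.71% of genes. In M2 vs. D1 this held for GRM3 and GRM7 (and 6.25% of genes), in M4 vs. D1 for the same pair (2.5% of genes) and in M6 vs. D1 for GRM3, GRM7 and GRM8 (3.33% of genes). These comparisons share the D1 libraries. Between the later stages no member had an unadjusted p under 0.05, and the limma intervals were wide, for example -0.72 to 0.46 on the log2 scale for GRM7 in M6 vs. M2. In simulated data of the same size, genes shifted by 1 on the log2 scale were recovered at a rate of 25% in M2 vs. D1. Those shifted by 2 were recovered at 78.5%. A recovered gene had to pass both thresholds, so the fold threshold itself limits the rate at a shift of 1. The simulated noise was normal and independent between genes, with 200 genes shifted at each size, so the rates need not hold for the real data.

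**Figure D2:**
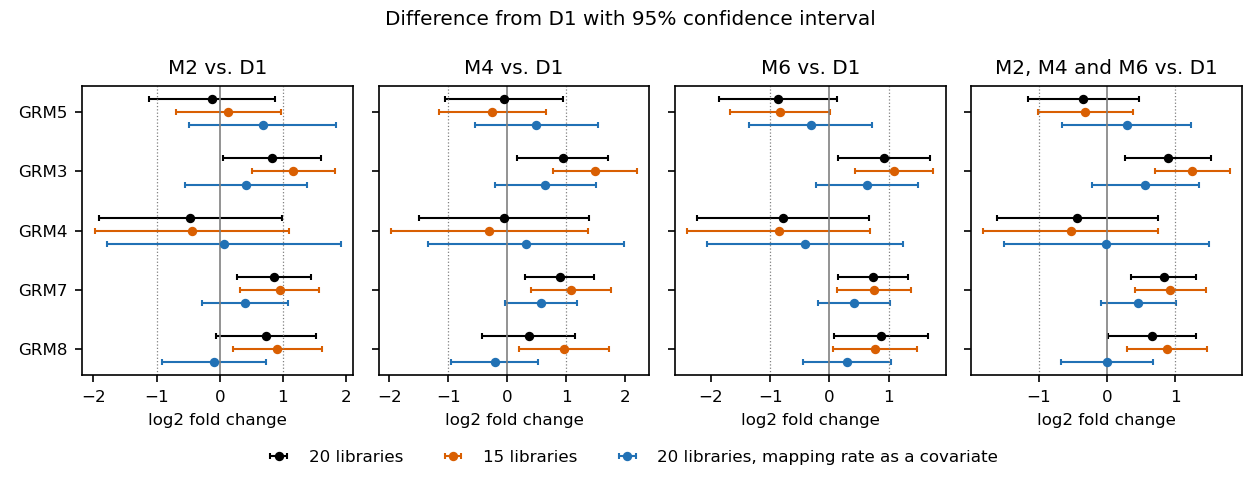
Log2 fold change against D1 (horizontal axis) with its 95% confidence interval from limma for GRM5, GRM3, GRM4, GRM7 and GRM8, over 20 libraries (black), over the 15 not high in markers of other regions (orange) and over 20 with mapping rate as a covariate (blue). Dotted lines mark a log2 fold change of 1 in either direction. GRM3 and GRM7 lie to the right of 0 in each panel, and the blue intervals of all 5 genes include 0.

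GRM5 made up 32.6 ± 8.89% of the summed FPKM of the 6 genes at D1 (SD, n = 5), and its share was 20.8 ± 5.19% for M2, 22.8 ± 12.6% for M4 and 15.6 ± 9.53% for M6. The share of GRM3 was 19.8 ± 5.69% at D1 and 27.2 ± 6.89% at M6, and that of GRM7 was 28.3 ± 8.57% at D1 and 33.3 ± 5.94% at M6. The group III genes together held 47.5 ± 11.7% at D1 and 57.2 ± 5.52% at M6. The sum was 97.0 ± 41.3 FPKM at D1, 134 ± 25.2 FPKM for M2, 143 ± 33.9 FPKM for M4 and 130 ± 34.3 FPKM for M6. The ratio of GRM5 to GRM3 was 2.33, 1.64, 2.16, 1.64 and 0.910 in the D1 libraries and 0.869, 0.746, 0.563, 1.08 and 1.16 in those of M2. It was 1.19, 2.71, 0.330, 0.540 and 0.667 at M4 and 0.365, 0.690, 0.0946, 1.75 and 0.576 at M6. Of the D1 libraries 4 had GRM5 clearly above GRM3, D1 replicate 4 included, while among the later ones M4 replicate 2 and M6 replicate 4 were the ones above 1.5. The shares, the sum and the ratio were chosen after the levels were seen and are given over all 20 libraries without a test.

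**Figure D3:**
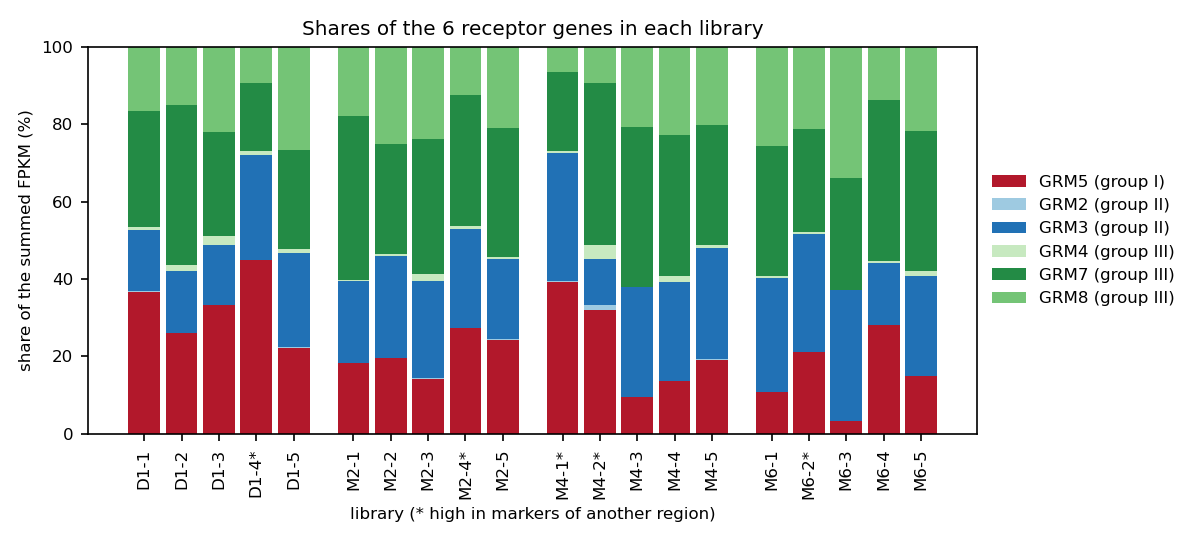
Share of each receptor gene in the summed FPKM of the 6 genes (vertical axis, percent) in each of the 20 libraries, grouped by stage, with group I in red, group II in blue and group III in green. Libraries marked with an asterisk are high in markers of another region. GRM5 makes up 3.22% of the sum in M6 replicate 3 and 44.9% in D1 replicate 4.

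Across the 20 libraries the levels of the members were compared in 15 pairs on the log2(FPKM + 0.1) scale, with permutation tests and Benjamini-Hochberg adjustment over the pairs. No pair had an adjusted p under 0.05 by Pearson's r. By Spearman's rho, GRM8 was correlated with GRM3 and with GRM7. For GRM3 and GRM8, r was 0.587 (permutation p = 0.00697, adjusted p = 0.0619) and rho was 0.641 (permutation p = 0.00303, adjusted p = 0.0348), with r at 0.553 without the 2 libraries farthest from the median of GRM3. Within stages r was 0.502 (permutation p = 0.0429, adjusted p = 0.253), and over the 15 libraries it was 0.945. Values of r over the 15 libraries pool the stages, here and elsewhere, so they include differences between stages. For GRM7 and GRM8, r was 0.531 (permutation p = 0.0157, adjusted p = 0.0619) and rho was 0.614 (permutation p = 0.00464, adjusted p = 0.0348), with r at 0.502 without the 2 farthest libraries and 0.434 within stages (permutation p = 0.132). GRM5 and GRM8 ran in opposite directions, with r at -0.558 (permutation p = 0.00920, adjusted p = 0.0619) and rho at -0.511 (permutation p = 0.0229, adjusted p = 0.0573).

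GRM5 and GRM8 also stood on opposite sides of the neuron markers RBFOX3, SNAP25, SYT1, STMN2 and ELAVL4. The 6 genes were set against 10 lists of cell type and region markers, 60 relations in all, chosen after the data were seen. GRM5 was higher where neuron markers were higher, with r at 0.708 (permutation p = 0.00147, adjusted p = 0.0294) and rho at 0.714 (permutation p = 0.00049, adjusted p = 0.0222). Its r was 0.491 without the 2 farthest libraries, 0.658 within stages (permutation p = 0.00502, adjusted p = 0.0532) and 0.672 over the 15 libraries. With the striatum markers, GRM5 had an r of 0.579 (permutation p = 0.0113, adjusted p = 0.0966). Within stages that r was 0.664 (permutation p = 0.00424, adjusted p = 0.0532), and it was 0.31 over the 15 libraries. With the thalamus markers, r was 0.236 over the 20 libraries and 0.670 over the 15. GRM8 was lower where neuron markers were higher, with r at -0.713 (permutation p = 0.0002, adjusted p = 0.012) and rho at -0.686 (permutation p = 0.00119, adjusted p = 0.0222). Its r was -0.527 without the 2 farthest libraries, -0.679 within stages (permutation p = 0.00532, adjusted p = 0.0532) and -0.604 over the 15 libraries. With a list of 5 oligodendrocyte markers, GRM5 had an r of -0.663 (permutation p = 0.00086, adjusted p = 0.0258) and a rho of -0.675 (permutation p = 0.00148, adjusted p = 0.0222), with r at -0.656 without the 2 farthest libraries. Within stages this r was -0.766 (permutation p = 0.00114, adjusted p = 0.0532), and it was -0.349 over the 15 libraries. With 5 astrocyte markers, GRM5 had an r of -0.610 (permutation p = 0.00587, adjusted p = 0.0704) and a rho of -0.698 (permutation p = 0.00089, adjusted p = 0.0222), with r at -0.713 without the 2 farthest libraries. That r was -0.580 within stages (permutation p = 0.00749, adjusted p = 0.0642) and -0.269 over the 15 libraries. For GRM3, r was -0.164 with the astrocyte markers (permutation p = 0.493, adjusted p = 0.722) and -0.279 with the neuron markers (permutation p = 0.239, adjusted p = 0.531). For GRM7, r was -0.102 with the astrocyte markers (permutation p = 0.669, adjusted p = 0.819) and -0.358 with the neuron markers (permutation p = 0.121, adjusted p = 0.414). The summed neuron markers ranged from 731 to 1306 FPKM at D1, 160 to 1105 FPKM for M2, 630 to 2562 FPKM for M4 and 66.9 to 788 FPKM for M6, with no marker at 0. The summed oligodendrocyte markers ranged from 910 to 13950 FPKM at D1, 2009 to 6868 FPKM for M2, 422 to 8841 FPKM for M4 and 617 to 14080 FPKM for M6. Their median was 12950 FPKM at D1, against 5252, 6675 and 5942 FPKM at the later stages in order of age, and 4 of 5 D1 libraries were above every M2 and M4 library. The part of the tissue's cell makeup in the stage differences was not tested.

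**Figure D4:**
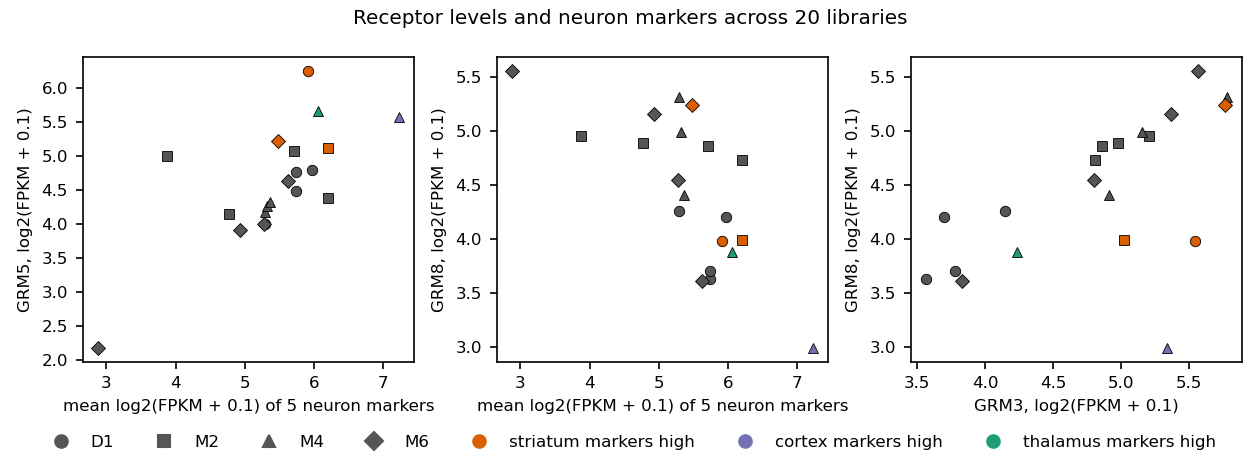
Each point is a library, with its stage given by shape and libraries high in markers of another region coloured. The left and middle panels plot GRM5 and GRM8 against the mean of 5 neuron markers, and the right panel GRM8 against GRM3, all as log2(FPKM + 0.1). GRM5 is higher and GRM8 lower toward the right of the neuron marker axis (r = 0.708 and -0.713), with M6 replicate 3 at the left end of both.

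The genes most like each member were those with the highest Spearman's rho over the 20 libraries. They were taken among the 13666 other tested genes with a mean of at least 1 FPKM (13667 for GRM2). As the largest of so many values over 20 libraries, these rho are biased upward, and no chance level was computed for them. For GRM5 they were KIAA0368 (rho 0.926), an unannotated locus (0.920) and LRRC7, a postsynaptic scaffold (0.920). For GRM8 they were C26H10orf90 (rho 0.943), PDE8A, a cyclic AMP phosphodiesterase (0.913), and AIF1L (0.878). For GRM7 they were an unannotated locus (rho 0.905), FAM198A (0.893) and IGF1R, the receptor of insulin-like growth factor 1 (0.883). For GRM3 the closest were the kinase MAST3 (rho 0.853), the ubiquitin ligase NEDD4L (0.817) and an uncharacterised gene (0.803). For GRM4 they included LMO1 (rho 0.803) and the creatine kinase CKB (0.747). For GRM2, which was near 0 in most libraries, they were IGSF21 (rho 0.930), an uncharacterised gene (0.879) and DNM1, a dynamin of synaptic vesicle recycling (0.867).

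The partners of the receptors were followed as 5 lists, of which 68 of 70 genes were matched and tested. None of the 68 was called in any of the 7 comparisons. At an unadjusted p under 0.05 there were 9 in M6 vs. M4 and 1 to 3 in each of the others, where between 1030 and 2616 of the 16771 genes tested passed that mark. The Gq list, downstream of GRM5, held 15 tested genes, of which PLCB1, the phospholipase C coupled to group I receptors, was at 41.5 ± 25.2 FPKM (SD, n = 20) and the cation channel TRPC1 at 33.3 ± 10.9 FPKM. Its smallest limma adjusted p was 0.419, for ITPR3 in M2 vs. D1. The Gi/o list, downstream of groups II and III, held 19 genes, led by the G protein subunit GNAI1 at 129 ± 67.0 FPKM and RGS4, which speeds the shut-off of G proteins, at 77.5 ± 97.1 FPKM. RGS4 ranged from 3.26 FPKM in M6 replicate 3 to 421 FPKM in M4 replicate 1, the libraries with the fewest and the most neuron marker RNA.

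Among 14 scaffold and synaptic partner genes, NCDN, a neuronal protein that binds GRM5, was at 38.7 ± 21.4 FPKM (SD, n = 20) and HOMER1, which tethers group I receptors, at 19.5 ± 15.3 FPKM. The smallest limma adjusted p of that list was 0.338, for SHANK1 in M2 vs. D1. Among 6 desensitization genes, the arrestin ARRB1 was at 15.4 ± 3.94 FPKM and the receptor kinase GRK5 at 13.2 ± 7.08 FPKM. GRK5 was at 8.23 ± 2.79 FPKM at D1 (SD, n = 5) and 14.8 ± 4.96 at M2, a log2 fold change of 0.82 ± 0.37 (SE, limma adjusted p = 0.293). Among 14 genes of glutamate and NAAG supply and clearance, glutamine synthetase (GLUL) was at 555 ± 167 FPKM and the glial transporter SLC1A3 at 222 ± 105 FPKM. The neuronal transporter SLC1A1 was at 17.1 ± 6.03 FPKM at D1 (SD, n = 5) and 10.1 ± 4.17 at M2, a log2 fold change of -0.78 ± 0.33 (SE, limma adjusted p = 0.269). SLC1A1 was named after its values were seen, as were ITPR3, SHANK1 and the genes named below for M6 vs. M4.

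The median log2 fold change of the Gi/o list was -0.38 in M6 vs. M4, where the median of all genes was 0.04, and those of the scaffold list were -0.51 for the M6 vs. M2 contrast and -0.33 for M6 vs. M4. In M6 vs. M4, the 9 genes past that unadjusted mark were all lower at M6, against 2.88% of all genes lower at that p. They included PLCB1 and PLCB4 of the Gq list, ADCY8, RGS7, RGS8, KCNJ6 and KCNJ9 of the Gi/o list, and RIMKLA, a NAAG synthetase. The smallest limma adjusted p among them was 0.700. Single libraries carried this count, since 2 of the 68 passed the unadjusted mark without M6 replicate 3, 1 of them lower, and 3 without either M4 replicate 1 or M4 replicate 2. M6 replicate 3 had the lowest summed neuron markers of the 20 libraries, 66.9 FPKM, and M4 replicate 1 the highest, 2562 FPKM. Over the 15 libraries, which leave out the M4 libraries with cortical and thalamic markers, 3 of the 68 were lower at that p, as were 1.25% of all genes. Against D1, the list medians differed with the stage. In M6 vs. D1 they were -0.19 for Gq, -0.13 for Gi/o, -0.15 for scaffolds and -0.06 for desensitization. For glutamate and NAAG supply and clearance the median was -0.13, and that of all genes was -0.05. In the same order of lists, the M2 vs. D1 medians were 0.18, -0.01, 0.26, 0.21 and -0.10, against -0.07 for all genes. Those of M4 vs. D1 were 0.13, 0.21, 0.12, 0.41 and -0.02, against -0.07 for all genes.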

How the data were processed

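The deposited file gives 1 FPKM value per gene and library. Per the labels and the study's methods, the authors made rRNA-depleted strand-specific libraries, trimmed the reads, aligned them with HISAT2 (version 2.0.5) to the ARS1 goat genome and obtained FPKM with StringTie (version 1.3.3b). FPKM removes length and library size, so the values are relative within a library. FPKM sums ran from 260199 to 377479 per library. Groups were taken from the labels, 5 goats per stage, and p-values measure the spread between goats. Gene positions came from the RefSeq annotation of ARS1.2.

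The 16771 of 21071 genes that reached 0.1 FPKM in 5 or more of 20 libraries were fitted with limma 3.58.1 in R 4.3.3 on log2(FPKM + 0.1), with 4 stages as groups, a variance trend and 7 contrasts, the last being the mean of M2, M4 and M6 minus D1. P-values were adjusted by Benjamini-Hochberg over all genes, and a gene was called with an adjusted p below 0.05 and a log2 fold change of 1 or more in size. Correlations used 100000 permutations (python 3.11.15, scipy 1.17.1). The procedure was tested on simulated data. The named genes are every member, GRM6 by level, the 2 genes with the highest mean and any called gene of each list, and the 3 genes most like each member, some of which are not reported here. Other partner genes were named after their values were seen. The members and lists were chosen with earlier results of these data known. Alternatives were the pseudocount, filter, normalization, threshold, variance trend, library weights, mapping rate (read from the study's table of reads), replicate block, and leaving out each library or the 5 high in other regions' markers.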

Additional observations from a re-analysis of the deposited data

Results flagged for a closer look

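In 4 of 24 groups of 5 libraries (6 genes at 4 stages), the highest or lowest library lay farther from the others than Dixon's 95% critical value for the gap over the range. For normal values and independent groups, chance alone marks about 1 in 20 groups. That rate need not hold here, since FPKM was used without the log and the genes share libraries. GRM3 in D1 replicate 4 was at 46.4 FPKM, where the other D1 libraries were at 11.7 to 17.6 FPKM (gap over range 0.831). GRM5 in the same library was at 76.3 FPKM, against 16.0 to 27.7 FPKM in the others (0.805). GRM8 in M2 replicate 4 was the lowest of its stage at 15.8 FPKM, against 26.6 to 30.9 FPKM (0.711). GRM2 in M4 replicate 2 was at 1.99 FPKM, against 0 to 0.249 FPKM (0.875). D1 replicate 4 and M2 replicate 4 are high in striatal markers and M4 replicate 2 in thalamic markers. The part of those markers' tissue in the 4 values was not tested.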

How the results depend on the processing

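No member or listed partner gene was called in any comparison under another pseudocount, filter, normalization, threshold or variance model, with mapping rate as a covariate or with any single library left out, where the number of members called was 0 in each of 20 refits. Library quality weights were the exception, with 1 member, GRM3, called in M6 vs. D1 and 1, again GRM3, for M2, M4 and M6 vs. D1, where 0.566% and 1.33% of all genes were called. The fit with the replicate number as a block called 0 members. Goats of different stages that share a number had a median correlation of -0.011 over 30 pairs, with a range of -0.25 to 0.43. Those with different numbers had a median of 0.004 over 120 pairs, with a range of -0.36 to 0.42. The main fit did not pair goats by number, and whether single pairs shared a batch was not tested. Of the 15 pairs of members, 0 were correlated by Pearson's r, but 1 (GRM3 and GRM8) was on FPKM without the log and 1 (GRM2 and GRM8) without the 2 farthest libraries. Some directions turned. With mapping rate as a covariate the log2 fold change of GRM8 was -0.0903 in M2 vs. D1, -0.21 in M4 vs. D1 and -0.00143 for the later stages together, that of GRM5 was 0.68, 0.50 and 0.29, and that of GRM4 was 0.0642 in M2 vs. D1 and 0.32 in M4 vs. D1. GRM4 in M4 vs. D1 was 0.10 with a pseudocount of 1 and 0.21 with quality weights, and -0.62 to 0.38 with 1 library left out. GRM5 in M2 vs. D1 was 0.16 with quantile normalization, 0.22 with quality weights and 0.14 over the 15 libraries, and -0.33 to 0.23 with 1 library left out. GRM5 in M4 vs. D1 was 0.0350 with quantile normalization and -0.27 to 0.29 with 1 library left out. For the later stages together, leaving out 1 library gave 0.75 to 1.25 for GRM3, highest without D1 replicate 4, 0.72 to 0.95 for GRM7 and 0.57 to 0.76 for GRM8. Over the other alternatives the adjusted p ran from 0.00597 to 0.999 for GRM3 and from 0.00882 to 0.999 for GRM7. The causes were not tested.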
